A study of Homo sapiens with 21 samples.

Results

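The genes of the Fanconi anemia pathway and of homologous recombination repair were examined in clones of the established human glioblastoma line U-87MG. The list named 34 genes by symbol, and 30 of them were matched in the annotation table of the array, each by 1 probe set with a single symbol. FANCA, FANCD2, BRCA2 and RBBP8 were not analysed here. The 30 genes stood among 18374 genes with a single symbol and 26947 probe sets, and each of the 30 had a mean above the limit of the dimmest 30% of probe sets (log2 4.956).

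Transcripts were measured on Affymetrix whole-transcript gene arrays, 9 from parkin clones and 12 from vector clones. The clones PK7, PK19 and PK25 carried parkin, a ubiquitin ligase of mitochondrial quality control, as a stable transgene. The clones V8, V17 and V22 carried the empty vector, and no further treatment is named for either group. Each label is a single clone with 3 arrays per series, and V22 was measured in both series. All clones were U-87MG cells cultured for 24 hours after seeding, so every comparison set clones of this line against each other. The level of the parkin transcript itself is not given here. By the prefix of their array names, the arrays were read as a first series (V8, V17 and V22 sets 1 to 3) and a second series (V22 sets 4 to 6 and all parkin arrays). Values are log2 of the deposited intensity, so that a difference of 1 is a 2-fold difference. Nothing in the labels says whether arrays of a clone came from separate cultures, and p-values over arrays measure only the spread between those arrays.

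Interstrand crosslinks bind both DNA strands together and stop the replication fork. In the Fanconi pathway, the core complex is brought to the stalled fork by FANCM and, with the conjugating enzyme UBE2T, attaches ubiquitin to the FANCD2 and FANCI pair, after which nucleases held by SLX4 unhook the crosslink. The resulting break is resected and repaired from the sister chromatid with the help of BRCA1, PALB2, BRCA2 and proteins such as XRCC2 and XRCC3, while ATM, ATR and the kinases CHEK1 and CHEK2 hold the cell cycle. Many of these genes are transcribed mainly in cells that replicate their DNA, and they help glioblastoma cells to survive alkylating drugs and radiation.

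Promoters are shown for 3 genes whose clone means lay lower in each parkin clone than in each vector clone, FANCM, BRIP1 and PALB2, picked because their windows hold a CCAAT box. For PALB2 this order of the clones held only with the array series linked through V22. The sequences are the 250 bases before the gene start in RefSeq (GRCh38.p14), read along the gene's strand, at chr14:45135680-45135929 (plus strand) for FANCM, chr17:61863529-61863778 (minus strand) for BRIP1 and chr16:23641311-23641560 (minus strand) for PALB2. Capitals mark a CCAAT box (CCAAT or, on the opposite strand, ATTGG) and, in BRIP1, also the cell cycle homology region motif (TTTGAA, here as TTCAAA on the opposite strand).
FANCM: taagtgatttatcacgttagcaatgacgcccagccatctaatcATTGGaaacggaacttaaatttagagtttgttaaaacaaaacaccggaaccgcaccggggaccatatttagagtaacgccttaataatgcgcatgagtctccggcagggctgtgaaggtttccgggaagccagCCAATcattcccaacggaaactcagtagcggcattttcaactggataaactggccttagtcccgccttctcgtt
BRIP1: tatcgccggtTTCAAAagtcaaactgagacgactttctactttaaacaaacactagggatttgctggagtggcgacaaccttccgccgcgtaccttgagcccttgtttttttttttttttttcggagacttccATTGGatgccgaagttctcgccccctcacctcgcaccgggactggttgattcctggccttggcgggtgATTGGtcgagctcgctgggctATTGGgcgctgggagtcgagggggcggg
PALB2: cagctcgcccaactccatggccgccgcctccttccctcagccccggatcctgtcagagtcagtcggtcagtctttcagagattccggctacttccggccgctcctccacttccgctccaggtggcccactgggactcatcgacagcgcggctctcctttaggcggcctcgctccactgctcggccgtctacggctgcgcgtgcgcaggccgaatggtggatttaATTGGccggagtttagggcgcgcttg
The FANCM window held 2 CCAAT boxes, BRIP1 held 3 and PALB2 held 1. In all, 11 genes had clone means so ordered and 9 of these had a promoter entry, of which 5 held a CCAAT box and 4 (FANCB, BARD1, XRCC2 and ATR) held none of the motifs searched. Of the 30 genes, 27 had a promoter entry, and FANCI, RAD54B and NBN had none. A CCAAT box on either strand was found in 14 of the 27 (51.9%) and in 40.4% of the 14208 array genes with an entry. E2F-type motifs (TTCCCGC or TTGGCGC or TTCGCGC, on either strand) were found in 8 of the 27 (29.6%) and in 15.7% of array genes. The carriers were FANCC, FANCG, FANCL, BRCA1, RAD51AP1, BLM, RAD54L and EME1. The motif TTTGAA was found in 4 of the 27 (14.8%), FANCC, BRIP1, ATM and UBE2T, and in 14% of array genes. These matches describe letters in a window and were not tested for binding.

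Array medians lay between log2 6.21 and 6.37. The glioma line markers VIM, CD44, FN1 and TNC were among the brightest 30% of probe sets, whereas NES (median 7.55) was not. GFAP (median 6.27) and SOX2 (median 6.18) were near the middle and S100B (median 4.05) was among the dimmest 30%. Of other cell types, 2 of 3 blood, 2 of 4 epithelial, 2 of 3 endothelial and 0 of 3 muscle markers were among the dimmest 30%. The blood marker PTPRC (median 3.10), endothelial VWF (4.58) and epithelial CDH1 (4.50) were among these. Epithelial KRT18 (7.67) and KRT8 (6.05) and muscle DES (6.77) were not, and the neuronal gene SNAP25 had a median of 7.85. Arrays PK7 set 2 and PK25 set 3 stood apart. On each of them 28 of the 30 repair genes lay below the mean of their clone, with median deviations of -0.26 and -0.16. The SD of all probe sets around the clone mean was 0.221 on PK7 set 2 and 0.227 on PK25 set 3, against 0.119 to 0.206 on the other 19 arrays. The median deviation of 14 proliferation markers was -0.32 on PK7 set 2 and -0.04 on PK25 set 3. V17 set 1 also had 28 repair genes below its clone mean, with a median deviation of -0.06. For the 30 genes, counts, medians by role and the differences of named genes that moved most are given also without PK7 set 2 and PK25 set 3. This alternative was chosen after seeing the data.

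**Figure D1:**
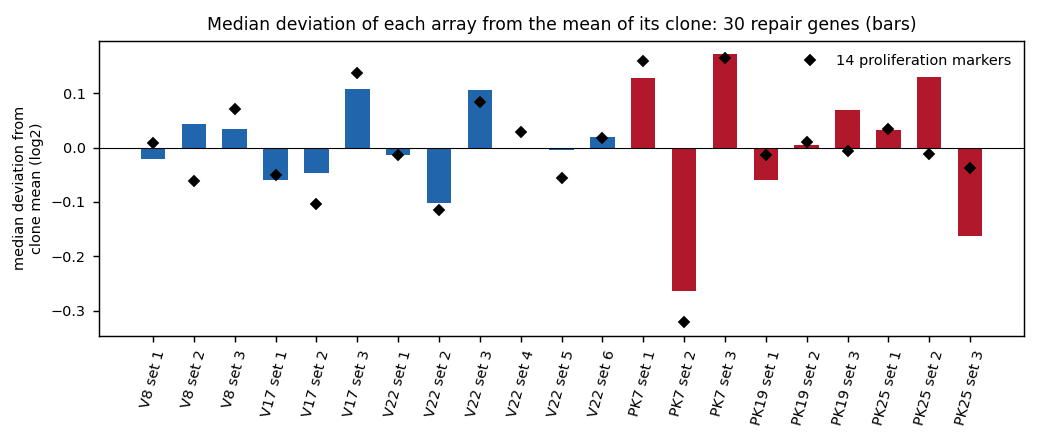
Median deviation (log2) of each of the 21 arrays from the mean of its clone within its array series, over the 30 repair genes (bars, blue for vector and red for parkin clones) and over 14 proliferation markers (diamonds). PK7 set 2 and PK25 set 3 have the lowest bars, at -0.26 and -0.16.

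Parkin against vector, the contrast for which the series was made, took the clone as the replicate. Through the link between the array series, all 3 vector means were tied to the V22 arrays of the second series. An error of those arrays would move the 3 vector means together and is not measured by the SE or p-values. It would also bear on the order of the linked clone means. Of the 30 genes, 27 had a lower mean in the parkin clones, with a median difference of -0.17 on the log2 scale against 0.00 over all probe sets and -0.05 over probe sets with a mean log2 value above 7. No gene passed the threshold (limma on 6 clone means, adjusted p under 0.05 over all probe sets), where 0.00371% of probe sets passed. At an unadjusted p under 0.05, 10 of the 30 genes were counted, against 14.1% of all probe sets. Without PK7 set 2 and PK25 set 3, 26 of 30 lay lower, the median was -0.09, none passed and 5 were counted at an unadjusted p under 0.05. The share of all probe sets at that p without those arrays is not given here.

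In 11 of the 30 genes (36.7%), each of the 3 parkin clone means lay below each of the 3 vector clone means, and in none did all parkin means lie above. The same separation downward was present in 10.9% of all probe sets and in 13.7% of those with a mean above 7, and upward in 12.3% and 6.65%. The 11 genes were FANCB, FANCF, FANCI and FANCM of the Fanconi pathway, BRCA1, BARD1, BRIP1 and PALB2 of the BRCA1 complexes, XRCC2 and RAD54B of the recombination machinery, and the kinase gene ATR. Without PK7 set 2 and PK25 set 3 the count was 9 (against 10.4% of all probe sets). XRCC3 entered, and BRCA1, RAD54B and ATR left. With all arrays but no adjustment for the series the count was also 9 (against 11.6% of all probe sets). FANCI, BRCA1, PALB2 and ATR then overlapped, and XRCC3 and EXO1 entered.

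FANCM, the translocase that anchors the core complex at stalled forks, had the smallest p of the 30 in this comparison. Its intensities were 7.17, 7.54 and 7.17 on the V22 arrays of the second series and lay between 7.25 and 7.80 on the 9 vector arrays of the first. In the parkin clones they were 6.80, 6.12 and 7.02 in PK7, 6.39, 6.54 and 6.71 in PK19, and 6.79, 7.24 and 6.41 in PK25. All parkin arrays except PK25 set 2 lay below all vector arrays. With the first series linked through V22, the clone means were 7.25, 7.30 and 7.29 in V8, V17 and V22, and 6.65, 6.55 and 6.81 in PK7, PK19 and PK25. The difference was -0.61 (SE 0.0876, limma adjusted p = 0.306), and -0.46 (adjusted p = 0.419) without PK7 set 2 and PK25 set 3.

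FANCF, an adaptor that holds the core complex together, showed a smaller difference. Its V22 arrays of the second series read 8.24, 7.92 and 8.25, and the vector arrays of the first series read 8.05 to 8.52. PK7 gave 7.90, 7.43 and 7.98, PK19 gave 7.92, 7.68 and 7.85, and PK25 gave 7.89, 8.07 and 7.76. Single arrays of the groups overlapped, whereas the clone means did not (8.14 to 8.24 in vector and 7.77 to 7.91 in parkin clones). The difference was -0.35 (SE 0.074, limma adjusted p = 0.306), and -0.26 without PK7 set 2 and PK25 set 3 (adjusted p = 0.419).

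XRCC2, a factor of homologous recombination that works in a complex with RAD51C, read 8.97, 8.87 and 8.98 on the V22 arrays of the second series and 8.82 to 9.27 on those of the first-series vector clones. The parkin clones gave 8.52, 7.96 and 8.46 (PK7), 8.52, 8.72 and 8.77 (PK19), and 8.64, 8.47 and 8.39 (PK25). Each parkin array was lower than each vector array. The difference of clone means was -0.41 (SE 0.104, limma adjusted p = 0.306), and -0.33 without PK7 set 2 and PK25 set 3 (adjusted p = 0.419).

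BRIP1, a helicase that binds BRCA1, read 8.81, 8.79 and 8.73 in V22 of the second series and 8.33 to 9.17 in the first-series vector clones. It read 7.91, 7.57 and 7.87 in PK7, 8.38, 8.46 and 8.49 in PK19, and 8.35, 8.47 and 8.20 in PK25. The PK7 arrays were the lowest of the 21, and within the second series no parkin array reached a V22 array. The difference of clone means was -0.58 (SE 0.176, limma adjusted p = 0.318). Leaving out the clone PK7 gave -0.38, and leaving out PK7 set 2 and PK25 set 3 gave -0.52 (adjusted p = 0.419).

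BARD1, the partner of BRCA1 in its ubiquitin ligase, read 8.84, 8.79 and 8.80 in V22 of the second series and 8.68 to 9.03 in the first-series vector clones. It read 8.57, 7.92 and 8.64 in PK7, 8.10, 8.17 and 8.16 in PK19, and 8.67, 8.62 and 8.55 in PK25. Every parkin array lay below every vector array, the closest being PK25 set 1 (8.67) and V8 set 1 (8.68). The difference was -0.42 (SE 0.127, limma adjusted p = 0.319), and -0.33 without PK7 set 2 and PK25 set 3 (adjusted p = 0.448).

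PALB2, which links BRCA1 to BRCA2, depended on the linking of the series. It read 8.95, 8.81 and 8.92 in V22 of the second series but 8.53, 8.43 and 8.69 in V22 of the first. The parkin arrays read 8.80, 8.27 and 8.80 (PK7), 8.67, 8.63 and 8.73 (PK19), and 8.79, 8.81 and 8.68 (PK25), and all but PK7 set 2 lay inside the range of the vector arrays of both series, 8.43 to 8.95. The linked difference was -0.28 (SE 0.0896, limma adjusted p = 0.319), and 0.01 (adjusted p = 0.968) without adjustment for the series. With V22 of the second series as the only vector arrays, which needs no linking, the difference was -0.21. Between the series, V22 itself differed by -0.34 (first minus second, SE 0.123, limma adjusted p = 0.415), the largest such difference of the 30 genes. None of the 30 passed in V22 between the series with limma, where 0.0297% of probe sets passed, and 1 of the 30 had an unadjusted p under 0.05, against 8.75% of all probe sets.

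**Figure D2:**
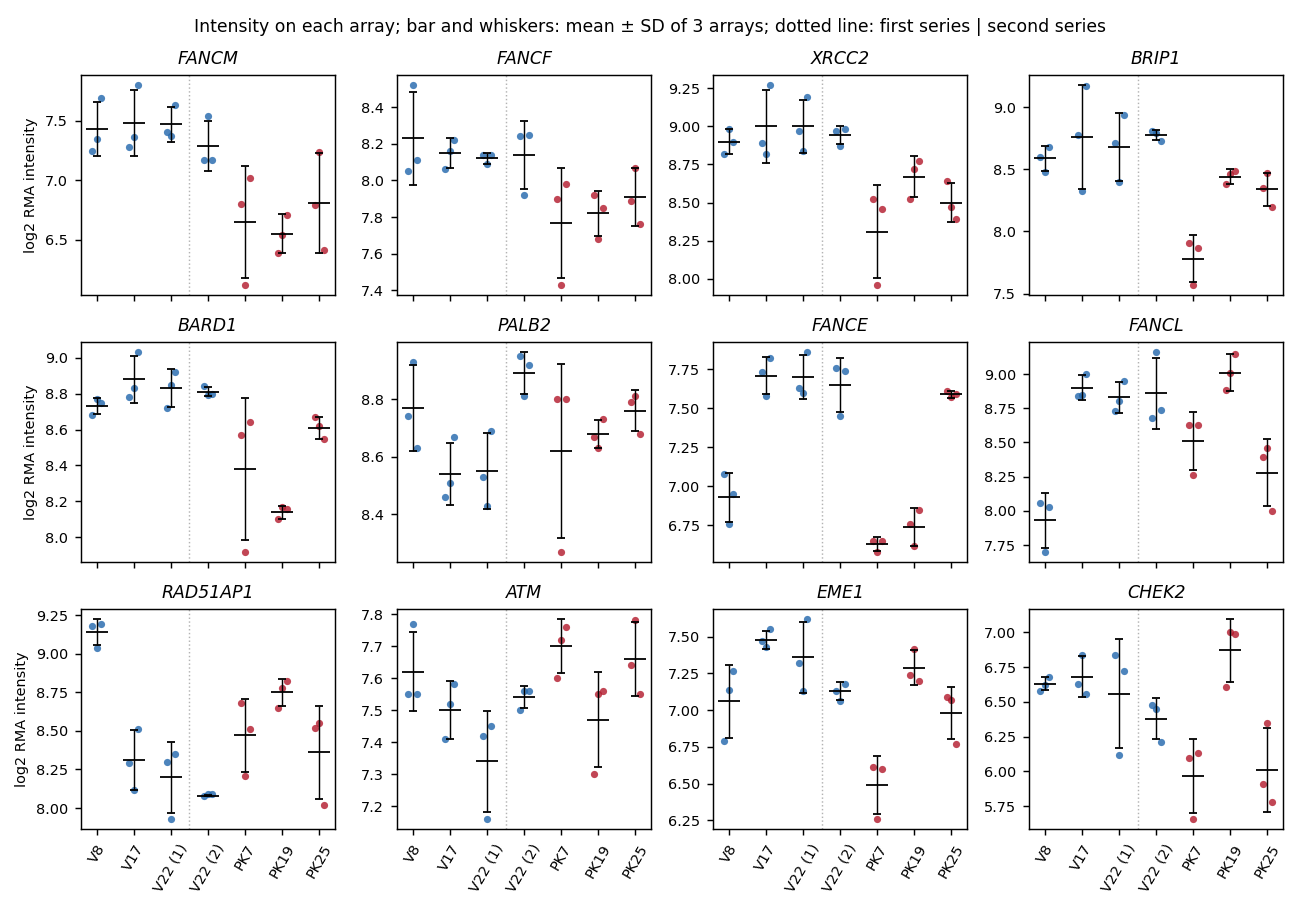
Log2 RMA intensity on each array (points, blue for vector and red for parkin clones) of 12 repair genes in the 6 clones, with V22 shown for the first (1) and second (2) series. Bars and whiskers are the mean ± SD of 3 arrays, and the dotted line parts the series. The parkin arrays of XRCC2 and BARD1 lie below all vector arrays, and PK7 set 2 is the lowest point in several panels.

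Against V22 of the same series, the genes divided by clone. In PK7, 8 of the 30 genes fell and none rose (limma on arrays, adjusted p under 0.05). Over all probe sets 8.11% fell and 7.11% rose, and of those with a mean above 7, 16.97% fell. The median difference of the 30 genes was -0.30, with 24 below 0. Of 14 proliferation markers, 4 fell in PK7 and their median difference was -0.23.

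The 8 genes that fell in PK7 came from several steps of repair. FANCE, which connects the core complex to FANCD2, read 7.76, 7.45 and 7.74 in V22 and 6.65, 6.58 and 6.65 in PK7. Its fall was the largest of the 30 genes, -1.02 (SE 0.107, limma adjusted p = 1.3e-06) or 2.03-fold, and the arrays of PK7 lay far from those of V22. BRIP1 fell by 0.99 (adjusted p = 1.9e-04). BLM, a helicase that undoes recombination intermediates, read 8.33, 8.21 and 8.24 in V22 and 7.64, 7.05 and 7.72 in PK7, a fall of 0.79 (adjusted p = 6.2e-04).

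EME1, the partner of the MUS81 nuclease, read 7.13, 7.06 and 7.18 in V22 and 6.61, 6.26 and 6.60 in PK7, a difference of -0.64 (SE 0.138, limma adjusted p = 0.00265). MUS81 itself, whose product forms the catalytic subunit, differed by -0.04. XRCC2 fell by 0.63 (adjusted p = 0.00365), and RAD51C, its partner in that complex, fell by 0.49 (adjusted p = 0.00614). BARD1 (-0.43, adjusted p = 0.0314) and FANCB, a subunit of the ligase module (-0.63, adjusted p = 0.0369), lay closer to the threshold. Without PK7 set 2 and PK25 set 3 the latter pair no longer passed (BARD1 -0.20, adjusted p = 0.161, and FANCB -0.43, adjusted p = 0.162). RAD51AP1, a recombination cofactor, then rose in PK7 (0.51, adjusted p = 0.00991), and the median of the 30 genes was -0.14. Without PK7 set 3, 13 genes fell.

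In PK19, 1 of the 30 genes rose and 3 fell, where 6.65% of all probe sets rose and 7.40% fell (14.35% of those with a mean above 7). The median difference was -0.15, with 23 of 30 below 0, and 6 of the 14 proliferation markers fell (median -0.38). FANCE read 6.76, 6.62 and 6.85 in PK19, all below its V22 arrays, a difference of -0.91 (SE 0.107, limma adjusted p = 3.8e-06). BARD1 fell by 0.67 (adjusted p = 0.0012), its arrays lying between 8.10 and 8.17. FANCM fell by 0.75 (adjusted p = 0.0242). RAD51AP1 was the gene that rose. It read 8.08, 8.09 and 8.09 in V22 and 8.65, 8.78 and 8.82 in PK19, a difference of 0.67 (SE 0.147, adjusted p = 0.00297). Without PK7 set 2 and PK25 set 3, which also leave the shared estimate of the spread, these 4 genes passed together with CHEK1, the kinase that acts downstream of ATR (-0.33, adjusted p = 0.0114, against 0.168 with those arrays).

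In PK25, none of the 30 genes passed with limma, where 1.37% of all probe sets did, and 4 had an unadjusted p under 0.05, against 11.3% of all probe sets. Nevertheless 25 of 30 lay below 0, with a median of -0.15, or 22 of 30 with a median of -0.08 without PK7 set 2 and PK25 set 3. None of the 14 proliferation markers passed in PK25 (median -0.13). The largest difference was that of FANCL, the ubiquitin ligase subunit of the core complex. It read 8.68, 9.16 and 8.74 in V22 and 8.39, 8.46 and 8.00 in PK25, with no overlap, and differed by -0.58 (SE 0.147, limma adjusted p = 0.0587). Its adjusted p ranged from 0.0385 to 0.334 over the alternatives, and without PK25 set 2 it passed (-0.67, adjusted p = 0.0396), whereas without PK25 set 3 the difference was -0.44 (adjusted p = 0.334).

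The vector clone V8 differed from V22 of the first series as well. Of the 30 genes, 1 rose and 2 fell (3.78% of all probe sets rose and 4.22% fell), and the median difference was -0.04. RAD51AP1 read 8.30, 7.93 and 8.35 in V22 of the first series and 9.18, 9.04 and 9.19 in V8, a rise of 0.94 (SE 0.147, limma adjusted p = 3.2e-04), with no overlap. FANCE read 7.63, 7.60 and 7.86 in V22 and 7.08, 6.76 and 6.95 in V8, a fall of 0.77 (adjusted p = 1.0e-04). FANCL read 8.73, 8.80 and 8.95 in V22 and 8.06, 7.70 and 8.03 in V8, a fall of 0.90 (adjusted p = 4.9e-04). Low FANCE and high RAD51AP1 were thus measured in a clone without the parkin transgene.

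V17 did not differ from V22 by this test in any of the 30 genes, and 0% of all probe sets passed with limma. None of the 30 had an unadjusted p under 0.05, against 2.71% of all probe sets. The median difference was 0.05, with 6 of 30 below 0. ATM, the kinase that senses double-strand breaks, had the largest difference of V17. It read 7.42, 7.16 and 7.45 in V22 and 7.41, 7.52 and 7.58 in V17, which overlapped, and differed by 0.16 (SE 0.103, limma adjusted p = 1).

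**Figure D3:**
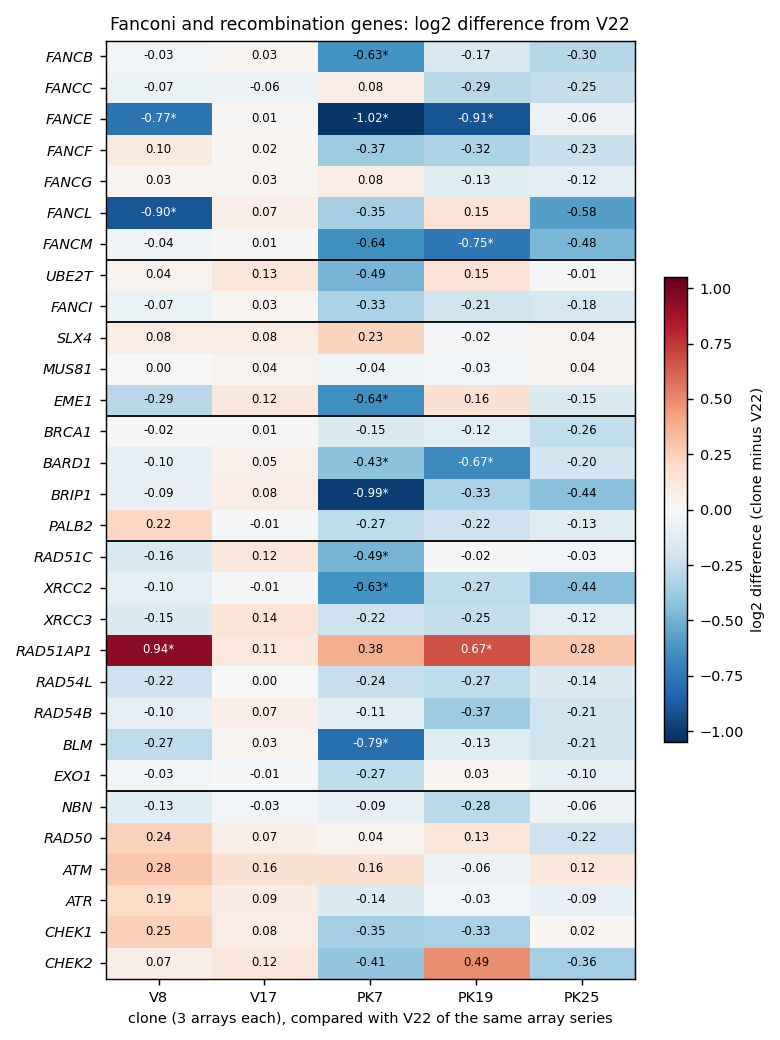
Log2 difference of each of the 30 genes (in order of role) in the 5 clones from V22 of the same array series, where red is higher, blue is lower and an asterisk marks limma adjusted p under 0.05 over all probe sets. PK7 holds 8 lower calls, PK19 holds 3 lower and 1 higher, V8 holds 2 lower and 1 higher, and PK25 and V17 hold none.

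Arranged by role, the Fanconi core complex (7 genes) had a median of -0.37 in PK7, -0.29 in PK19 and -0.25 in PK25, with 2, 2 and 0 genes fallen. All 7 lay below 0 in PK25. The medians were -0.23 in PK7 and -0.15 in PK25 without PK7 set 2 and PK25 set 3. In the vector clone V8, 2 of the 7 fell as well (median -0.04), and in V17 none did (median 0.02). Beside the counts by role, 8.11% of all probe sets fell in PK7, 7.40% in PK19 and 4.22% in V8. Of those with a mean above 7, 16.97%, 14.35% and 7.92% fell. FANCC and FANCG, further subunits of the complex, had no call against V22 in any clone and differed by 0.08 each in PK7. UBE2T and FANCI, the conjugating enzyme and the ubiquitinated partner of FANCD2, gave no call against V22 in any clone.

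The BRCA1 complexes (4 genes) lay below 0 in all 3 parkin clones, with medians of -0.35, -0.28 and -0.23 in PK7, PK19 and PK25, and with 2, 1 and 0 genes fallen. With PK7 set 2 and PK25 set 3 left out, the medians were -0.15 in PK7, where 3 of the 4 lay below 0, and -0.16 in PK25. BRCA1 itself differed by -0.15, -0.12 and -0.26 in these clones, none of which passed, and in PK7 by 0.09 (limma adjusted p = 0.724) without those arrays. In V8 and V17 the medians of the 4 genes were -0.06 and 0.03.

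Recombination cofactors and helicases (8 genes) had medians of -0.26, -0.19 and -0.13, with 3 genes fallen in PK7, 1 risen in PK19 and no call in PK25. In V8, 1 of the 8 rose (median -0.12). Leaving out PK7 set 2 and PK25 set 3 gave medians of -0.16 in PK7 and -0.08 in PK25. EXO1, the exonuclease that resects break ends, and the translocase RAD54L had no call against V22 in any clone. The nuclease scaffold SLX4 and the nuclease subunits MUS81 and EME1 had medians of -0.04, -0.02 and 0.04, with EME1 in PK7 the sole call. Without those arrays their medians were -0.07 in PK7 and 0.13 in PK25. The 6 break sensors and checkpoint kinases (NBN, RAD50, ATM, ATR, CHEK1 and CHEK2) gave no call against V22 in PK7, PK19, PK25, V8 or V17. Their medians were -0.12, -0.04 and -0.07 in the parkin clones and 0.21 in V8. When PK7 set 2 and PK25 set 3 were left out, the medians were 0.01 in PK7, where 2 of the 6 lay below 0, and -0.01 in PK25, and CHEK1 then passed in PK19.

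Whether the parkin clones, all of the second series, differed among themselves was tested by an F test. Its estimate of the spread came from all 21 arrays. Of the 30 genes, 9 passed (limma, adjusted p under 0.05), where 23.6% of all probe sets and 41.7% of those with a mean above 7 passed. When only arrays of the second series were fitted, 7 of the 30 passed, and the share of all probe sets is not given for that fit. FANCE varied most, by 0.96 between PK7 and PK25 (adjusted p = 1.7e-06). PK25 read 7.61, 7.57 and 7.59, inside the V22 range, while all PK7 and PK19 arrays lay at or below 6.85.

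EME1 was higher in PK19, at 7.24, 7.42 and 7.20, than in PK7, at 6.61, 6.26 and 6.60, with PK25 between them at 7.09, 7.07 and 6.77 (largest difference 0.80, limma adjusted p = 6.5e-04). CHEK2, the effector kinase of ATM, read 6.61, 7.00 and 6.99 in PK19, against 6.10, 5.66 and 6.13 in PK7 and 5.91, 6.35 and 5.78 in PK25. PK19 lay above both other clones without overlap, by 0.90 over PK7 (adjusted p = 0.00128) and by 0.85 over PK25 (adjusted p = 0.00229). V22 of the second series read 6.48, 6.45 and 6.21, overlapping PK25, and CHEK2 in PK19 differed from it by 0.49, which did not pass.

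By pairs of clones, PK7 was lower than PK19 in 7 of the 30 genes and higher in 1, FANCC (0.37), where 7.94% of all probe sets were lower and 7.85% higher. The median difference of the 30 genes was -0.07, with 20 below 0. Without PK7 set 2 and PK25 set 3, 5 genes were lower and 3 higher (FANCC, FANCG and BARD1), and the median was 0.06, with 13 below 0. Leaving out PK19 set 3 gave 5 lower and none higher. PK7 was lower than PK25 in 5 genes (FANCE, BRIP1, BLM, RAD51C and EME1), where 6.33% of all probe sets were lower, and this count was 1 (FANCE) without PK7 set 2 and PK25 set 3, 2 without PK25 set 2 and 3 without PK25 set 1. With PK7 set 2 alone left out, 1 gene was lower and 1 higher. PK19 was higher than PK25 in FANCL and CHEK2 and lower in FANCE and BARD1, where 8.12% of all probe sets were higher and 6.77% lower.

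Some of these differences were shared with neighbouring genes on the chromosome. For each gene the median difference was taken over up to 50 expressed neighbours, 25 on each side. With this median subtracted, 10 of the 30 genes fell in PK7 in place of 8. FANCF, FANCI and PALB2 gained a call there (limma adjusted p = 0.0295, 0.0249 and 0.00168), and RAD51C lost its call (0.053). In PK19, 1 rose and 2 fell, and in V8, 1 rose and 1 fell. The shares of all probe sets called after subtraction are not given here. FANCE lies on chromosome 6 among neighbours from RXRB to CCND3, which had medians of -0.76 (PK19), -0.57 (PK7), -0.55 (V8) and -0.01 (PK25). The order of the clones was that of FANCE itself except between PK7 and PK19. With the running median of neighbours subtracted, FANCE kept its call in PK7 (-0.45, limma adjusted p = 0.00112) but not in PK19 (-0.15, adjusted p = 0.299) or V8 (-0.22, adjusted p = 0.145).

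FANCM lies on chromosome 14 among neighbours from HEATR5A to DDHD1, whose median was -0.84 in PK19, against -0.28 in PK7 and -0.29 in PK25. After subtraction FANCM differed by 0.10 in PK19 (limma adjusted p = 0.81), and its parkin against vector difference was -0.18 (adjusted p = 0.525) in place of -0.61. RAD51AP1 on chromosome 12 had neighbours with medians of 0.31, 0.26 and 0.27 in PK7, PK19 and PK25 and of 0.52 in V8. It remained called after subtraction in PK19 (0.41, adjusted p = 0.0327) and in V8 (0.42, adjusted p = 0.0492). FANCL in V8, with a neighbour median of -0.22, also kept its call (-0.67, adjusted p = 0.00234).

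BLM and BARD1 stood away from their neighbours. The neighbour median of BLM in PK7 was 0.08, and the difference after subtraction was -0.87 (limma adjusted p = 1.2e-04). That of BARD1 in PK19 was -0.06, and its difference after subtraction was -0.60 (adjusted p = 1.2e-04). CHEK2 on chromosome 22 had neighbour medians of -0.53, 0.01 and -0.21 in PK7, PK19 and PK25, and the largest difference between parkin clones after subtraction was 0.63 (adjusted p = 0.0272). DNA copy number was not measured here, and its part in these differences was not tested.

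**Figure D4:**
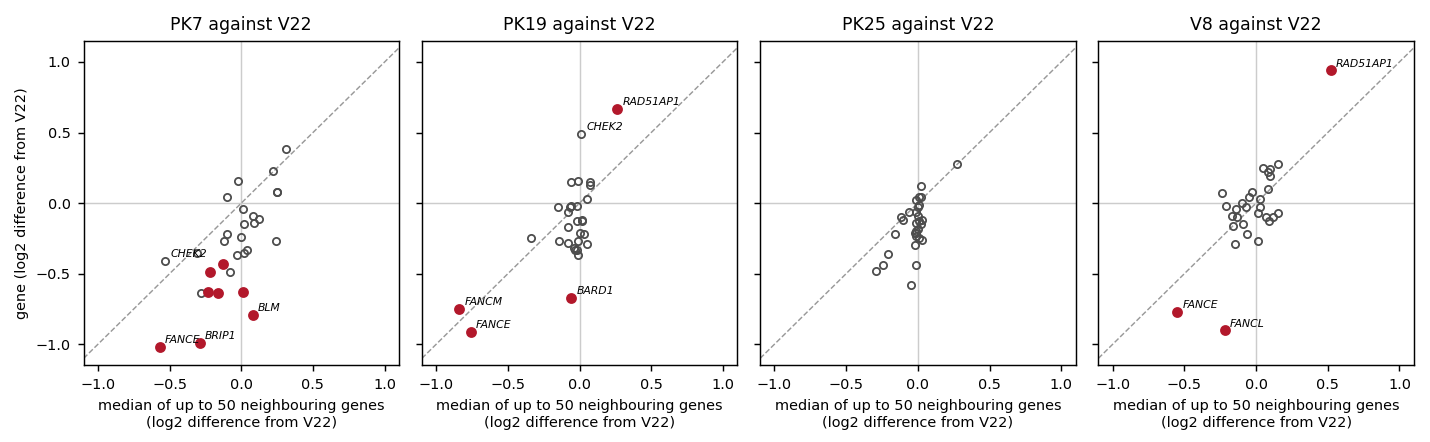
Log2 difference from V22 of each of the 30 genes (vertical axis) against the median difference of up to 50 neighbouring expressed genes (horizontal axis) in PK7, PK19, PK25 and V8, where filled points passed limma adjusted p under 0.05 and the dashed line marks equality. FANCE and FANCM in PK19 lie near the line, with neighbour medians of -0.76 and -0.84, whereas BLM in PK7 and BARD1 in PK19 lie far below it.

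Further genes of the same and adjoining pathways gave mixed counts, and no gene of these lists passed for parkin against vector clones. Beside the counts of each list, 8.11% of all probe sets fell in PK7, 7.40% in PK19 and 4.22% in V8. The shares that rose were 7.11%, 6.65% and 3.78%. Of those with a mean above 7, 16.97%, 14.35% and 7.92% fell, and 10.91%, 9.49% and 6.36% rose. In PK25, 1.37% of all probe sets passed in either direction. Of 11 other Fanconi genes matched, 2 fell in PK7 (ERCC1 and FAAP24), 2 in PK19 (ERCC1 and ERCC4) and none in PK25, while 2 fell in V8, ERCC1 again among them. Their median for parkin against vector was -0.10, with USP1, the deubiquitinase of FANCD2, at -0.16 and its cofactor WDR48 at 0.16 (limma adjusted p = 0.407 and 0.432).

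Of 20 other recombination genes, 2 rose and 5 fell in PK7, 1 rose and 2 fell in PK19, 1 fell in PK25, and 2 rose in V8. RAD51B, a further partner of XRCC2 and RAD51C, fell in PK19 (-0.70, limma adjusted p = 3.9e-04) and PK25 (-0.55, adjusted p = 0.0298) and differed by -0.27 in PK7 (adjusted p = 0.169). MND1, a cofactor of meiotic recombination, fell in PK7 (-0.72, adjusted p = 0.0213). The median for parkin against vector was -0.15.

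Among 11 ATR checkpoint genes, 2 fell in PK7 and 2 in PK19, with none called in PK25 or V8. The median for parkin against vector was -0.23. CLSPN, the adaptor through which ATR activates CHEK1, fell in PK19 (-0.61, limma adjusted p = 0.0374), whereas CDC25A, the phosphatase that CHEK1 restrains, had no call (-0.36, -0.12 and -0.22 in PK7, PK19 and PK25). Of 11 genes of break signalling at chromatin, 1 rose and 4 fell in PK7, 1 rose and 2 fell in PK19, and 1 fell in V8, with a parkin against vector median of -0.22. RIF1, which limits resection of break ends, and UIMC1, a ubiquitin reader that brings BRCA1 to breaks, differed by -0.28 and -0.25 for parkin against vector (adjusted p = 0.319 and 0.306).

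End joining, the route that rejoins breaks without a template, had 10 genes matched. Of these, 2 fell in PK7, 2 rose in PK19, and 1 rose and 1 fell in V8, and the parkin against vector median was -0.07. XRCC4, the scaffold of the ligase, fell in PK7 (-0.47, limma adjusted p = 0.0464), and PRKDC differed by 0.00 there. In mismatch repair, 3 of 5 genes fell in PK7, where 8.11% of all probe sets and 16.97% of those with a mean above 7 fell. In PK19, 2 fell and 1 rose, where 7.40% of all probe sets fell and 6.65% rose. Of those with a mean above 7, 14.35% fell and 9.49% rose in PK19. The parkin against vector median of the 5 genes was -0.26. MSH6, a mismatch sensor, fell in both clones (-0.45 and -0.53, adjusted p = 0.0164 and 0.00458), as did MLH3 (-0.45 and -0.74, adjusted p = 0.0398 and 9.8e-04). The PK7 values of XRCC4, MSH6 and MLH3 include PK7 set 2 and are not given without it.

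The 14 proliferation markers had a median of -0.20 for parkin against vector, with 13 below 0, close to the -0.17 of the 30 repair genes. MCM5, a subunit of the replicative helicase, fell in PK7 (-1.11, limma adjusted p = 7.0e-06) and PK19 (-0.57, adjusted p = 0.00496) and differed by -0.51 in PK25 (adjusted p = 0.0691). Its companion MCM7 fell in PK7 (-0.40, adjusted p = 0.0492). The PK7 values of these markers include PK7 set 2, where their median deviation from the clone mean was -0.32, and are not given without it. In bulk RNA, fewer cells in replication and less transcript per cell cannot be told apart, and the part of proliferation in the differences of the repair genes was not tested.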

How the data were processed

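Gene expression was measured on 21 Affymetrix arrays of U-87MG clones. The deposited table holds intensity on a linear scale, which the authors made with RMA, per the submitters' processing notes, whose version is not given in the sources used here. The deposited intensity was turned into log2 values with no filter. Symbols were taken from the array's annotation (1 symbol for 19305 probe sets, several for 1750, none listed for 5892). The members and lists were chosen with earlier results of these data known.

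Each clone was compared with V22 of its own array series in a limma 3.58.1 (R 4.3.3) fit of all 21 arrays in 7 groups. Parkin and vector clones were compared on 6 clone means, after the V22 difference between the series was removed from the first series. An F test compared the parkin clones. Benjamini-Hochberg adjustment ran over 26947 probe sets. Called means an adjusted p under 0.05. The code was tested on simulated data. Arrays have no counted depth, and their number limits the precision.

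Genes described by array were the 6 with the smallest p for parkin against vector, the largest difference of each clone, genes called in 1 direction in all 3 parkin clones and no vector clone (none), the 3 largest F, and the largest V22 series difference. From each related list the 2 genes with the smallest p for parkin against vector were named. Other genes were named after their values were seen. Neighbours were expressed genes (mean log2 above 7) in RefSeq order (GRCh38.p14). Set numbers were not used to pair the arrays in the main fits. Correlations of deviations within a set were 0.0591 to 0.216 in the first series and -0.0917 to 0.381 among parkin arrays. Between sets they were -0.141 to 0.0533 and -0.365 to 0.323. The ranges within and between sets thus overlapped among parkin arrays but not in the first series. Alternatives covered normalization, filters, the variance model, the series, single arrays or clones left out, neighbours and the set number as a block.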

Additional observations from a re-analysis of the deposited data

Results flagged for a closer look

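In 9 of the 30 genes the difference from V22 was unequal among the parkin clones by the limma F test. Of all probe sets 23.6% passed, and of those with a mean above 7, 41.7% did. The largest differences between 2 parkin clones were 0.96 for FANCE, 0.90 for CHEK2, 0.80 for EME1, 0.73 for FANCL, 0.66 for BLM, 0.66 for BRIP1, 0.64 for UBE2T, 0.47 for RAD51C and 0.47 for BARD1. The adjusted p was highest for BARD1 (0.037) and UBE2T (0.0247). PK7 was the lowest clone in FANCE, BLM, BRIP1, RAD51C, UBE2T, CHEK2 and EME1, PK25 in FANCL, and PK19 in BARD1. Without PK7 set 2 and PK25 set 3, BRIP1 (adjusted p = 0.062) and UBE2T (adjusted p = 0.172) no longer passed, while FANCC (adjusted p = 0.0226) and CHEK1 (adjusted p = 0.0205) did.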

How the results depend on the processing

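Of the recomputed counts of called genes in comparisons other than pairs of parkin clones, 108 stayed within 1.5 times the count first given and 11 did not. Many of the 108 were counts of 0 that stayed 0, as in V17 and V22 between the series throughout. Some alternatives were left out of this tally for the F test and the vector clones. Over 15 alternatives for each pair, 2 counts moved further for PK7 against PK19, 5 for PK7 against PK25 and none for PK19 against PK25. Leaving out each array gave 5 to 7, 2 to 7 and 3 to 5 genes for these pairs. With at least 2-fold required as well, 1 gene passed in PK7, 0 in PK19 and 0 in V8. In PK25 the count was 1 (FANCL) in place of 0 under quantile normalization, without the dimmest 30% of probe sets, with a trended and robust variance, with the mean of all probe sets of a gene (1 here, so that only the number tested differs) and with neighbours subtracted. Leaving out each array gave 6 to 13 genes in PK7, 3 to 4 in PK19, 0 to 1 in PK25, 3 in V8, 0 in V17, 0 in V22 between the series and 7 to 10 for the F test. Leaving out each clone gave 0 for parkin against vector. Under a replicate block by set number, arrays as observations and no adjustment for the series, 8 genes passed for parkin against vector, among them FANCM, FANCF, XRCC2, BRIP1 and BARD1. This setting takes arrays as replicates and holds only sets 1 to 3. Its vector arrays were thus all of the first series and its parkin arrays all of the second. Parkin and array series cannot be told apart in it, and its set numbers are shared by arrays of different series. The share of all probe sets that passed in it is not given here. In fits with the block, 3 genes passed in V8, 0 in V17, 6 by the F test, 4 for PK7 against PK19 (all lower), 2 for PK7 against PK25 and 3 for PK19 against PK25. PALB2 for parkin against vector turned to 0.01 without adjustment for the series and to 0.07 with the block. Separation of the clone means downward was counted in 9 genes without the series adjustment, 10 under quantile normalization and 14 with arrays centred on their medians. Of all probe sets 11.6%, 10.4% and 15.4% were so separated, and 14.9%, 9.58% and 18.8% of those with a mean above 7. With neighbours subtracted the count was 9, against 6.88% of placed probe sets and 10.0% of those with a mean above 7. FANCM, RAD54B and ATR then left and FANCG entered. The cause of these shifts was not tested.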
